A study of Mus musculus with 12 samples.

Results

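The regions described here are 3227 stretches of the mouse genome that were accessible in at least 11 of 12 ATAC-seq libraries and lay far from gene ends. They were found by merging overlapping peaks of the 12 libraries into 153346 regions on 20 chromosomes. A region was kept when it was called in at least 11 libraries and its centre lay more than 10 kb from both ends of every protein-coding gene. The 3227 regions are 2.10% of all regions and 25.3% of those called in at least 11 libraries. The regions were thus chosen by their peak calls and by distance, so their frequency of calling and distance are descriptions and not findings.

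Distal accessible regions are stretches of open chromatin away from promoters, and many are enhancers or boundary elements bound by transcription factors. Enhancers are usually used in few cell types, whereas binding sites of the boundary factor CTCF are commonly shared between cell types. Mesenchymal stem cells are stromal cells of bone and marrow that can form bone, cartilage and fat cells.

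The study used ATAC-seq, in which a transposase cuts open chromatin, on mouse mesenchymal cells in a project on EWS::FLI1, the fusion protein of Ewing sarcoma, and IGF-1, a growth factor. The genotype label gave 4 Wt libraries, 4 EF libraries, 2 EF_IGF1 libraries, 1 Wt_IGF1 library and 1 EF_IGF1_xeno library. What the abbreviations stand for, the promoter driving any transgene and the animals' ages are not stated in the labels. Wt replicates 1 and 2 (cultures WT_1 and WT_2) and EF replicates 1 and 2 (lines S_220 and S_221) were run on flowcell BSF_0654. Wt replicates 3 and 4 (BM and S_203), Wt_IGF1 (BM), EF replicates 3 and 4 (S_220 and S_221), the EF_IGF1 libraries (S_220 and S_221) and EF_IGF1_xeno (S_221) were run on BSF_1013. The 4 EF libraries thus come from 2 lines, and p-values for EF measure partly the spread between libraries of 1 line.

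Libraries differed in the number and heights of their peaks, and 3 stood apart. Read totals were not used, so sequencing depth was not compared. Wt replicate 1 had 7748 peaks against 27332 to 83718 in the others, and it called 679 of the 3227 regions against 3181 to 3227. Wt replicate 2 had the least similar heights, as given below. EF_IGF1 replicate 1, labelled S_220, had heights over these regions that correlated at 0.546 and 0.505 with EF replicates 1 and 3 of line S_220, at 0.544 with EF replicate 2 of line S_221 and at 0.797 with EF replicate 4 of that line (Spearman, a description over regions that share libraries). Among the EF libraries, the higher similarity to S_221 thus rests on EF replicate 4. EF_IGF1 replicate 1 also correlated at 0.847 with EF_IGF1 replicate 2 and at 0.768 with EF_IGF1_xeno, both labelled S_221. Those libraries share its IGF1 label and flowcell, whereas EF replicate 2 was run on the other flowcell. Whether the line label is right was not tested.

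The threshold of 11 libraries rested largely on 1 library. In all 12 libraries 589 regions were called, and 2638 were called in 11. Of these 2638, Wt replicate 1 was the missing library for 2548, EF replicate 2 for 46, and none of the others for more than 12. A further 4177 distal regions were called in exactly 10 libraries, and 98.2% of them lacked Wt replicate 1. The region nearest the distance threshold on the inside lay 10007.5 bp from Rrm2 on chromosome 12, and the nearest on the outside lay 9996.5 bp from Chrna1 on chromosome 2.

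A set of these regions covered annotated transcript starts although each lay far from gene ends, because a long gene can have internal starts and RefSeq also lists starts of long noncoding RNAs (lncRNAs). Of 3096 regions not on chromosome 18, 375 (12.1%, exact 95% interval 10.98 to 13.31) overlapped a 300-base window around a RefSeq start (build GRCm38.p6), against 1.57% (1.49 to 1.65) of the other 93099 distal regions. The windows belonged to protein-coding genes for 202 regions, to lncRNAs for 155 and to both for 18. The share was 28.3% among regions called in all 12 libraries and 8.55% among those called in 11, and it was 1.10% among distal regions called in 1 library. For 232 regions the median summit itself lay in the window. The intervals cover counting error only, and wider regions meet more windows. Constitutive distal regions on a window had a median width of 1097 bp and the other constitutive distal regions 827 bp. Distal regions called in fewer libraries were narrower: the median was 275 bp at 1 library and 735 bp at 10, against 825 bp at 11 and 983 bp at 12. The shares were not adjusted for width.

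**Figure D1:**
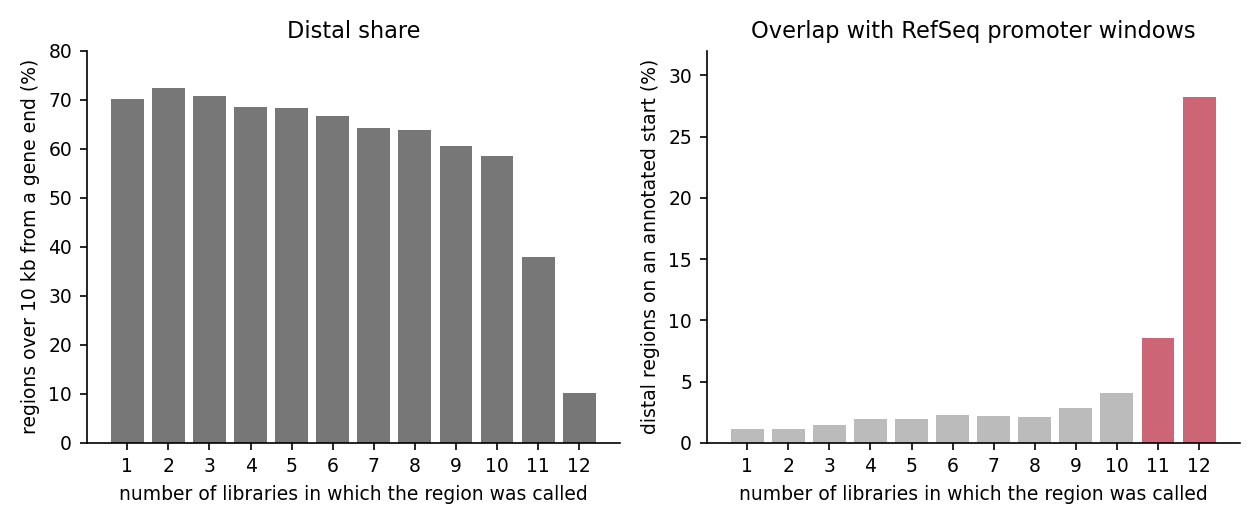
Left, percent of merged regions whose centre lay over 10 kb from gene ends, by the number of libraries that called them. Right, percent of those distal regions that overlapped a RefSeq promoter window, with the constitutive distal regions in red; the distal share was 70.2% at 1 library and 10.2% at 12, and the window share was 1.10% and 28.3%.

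The windows printed next show what such internal starts look like; they were chosen after their values were seen, to hold a tall region (Fgd4), an evenly tall one (Kifap3, a kinesin adaptor), a variable one (Elavl2, a neuronal RNA-binding protein), a low one (Lmna, lamin A/C) and a lncRNA start inside Myof, a membrane repair gene. Each runs 5′ to 3′ on the strand of its gene, from RefSeq GRCm38.p6. Capitals mark matches on either strand to the searched letters: a longer core motif for CTCF, TGANTCA for AP-1, GGAATG for TEAD, TGTGGT for RUNX, CCGGAAGT for ETS factors and GGGCGG for SP factors.
Fgd4 (chr16:16560170-16560469, minus strand): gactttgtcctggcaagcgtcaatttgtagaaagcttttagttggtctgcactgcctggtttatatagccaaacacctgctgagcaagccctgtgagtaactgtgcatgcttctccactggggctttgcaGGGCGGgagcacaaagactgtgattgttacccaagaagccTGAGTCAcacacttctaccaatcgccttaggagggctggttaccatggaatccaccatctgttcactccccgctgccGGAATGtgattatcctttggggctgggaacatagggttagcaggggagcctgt
Kifap3 (chr1:163779333-163779632, plus strand): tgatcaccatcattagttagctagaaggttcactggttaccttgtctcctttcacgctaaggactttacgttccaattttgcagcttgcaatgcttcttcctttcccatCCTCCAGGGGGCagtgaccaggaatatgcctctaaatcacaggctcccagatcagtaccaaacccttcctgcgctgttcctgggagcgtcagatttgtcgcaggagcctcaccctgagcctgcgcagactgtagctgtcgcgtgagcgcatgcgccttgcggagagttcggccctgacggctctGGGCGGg
Elavl2 (chr4:91376421-91376720, minus strand): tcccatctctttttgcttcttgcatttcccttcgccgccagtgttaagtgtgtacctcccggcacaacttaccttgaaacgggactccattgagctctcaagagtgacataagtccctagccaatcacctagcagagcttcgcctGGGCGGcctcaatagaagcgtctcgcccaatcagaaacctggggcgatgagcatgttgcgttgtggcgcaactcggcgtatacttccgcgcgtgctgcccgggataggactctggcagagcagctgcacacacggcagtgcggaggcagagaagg
Lmna (chr3:88493263-88493562, minus strand): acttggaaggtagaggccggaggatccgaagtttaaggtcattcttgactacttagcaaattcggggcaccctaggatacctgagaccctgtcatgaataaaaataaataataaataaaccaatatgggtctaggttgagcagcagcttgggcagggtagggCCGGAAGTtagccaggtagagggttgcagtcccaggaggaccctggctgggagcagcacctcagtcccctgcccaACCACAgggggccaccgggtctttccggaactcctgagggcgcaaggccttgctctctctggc
Gm52396 (chr19:38015410-38015709, plus strand): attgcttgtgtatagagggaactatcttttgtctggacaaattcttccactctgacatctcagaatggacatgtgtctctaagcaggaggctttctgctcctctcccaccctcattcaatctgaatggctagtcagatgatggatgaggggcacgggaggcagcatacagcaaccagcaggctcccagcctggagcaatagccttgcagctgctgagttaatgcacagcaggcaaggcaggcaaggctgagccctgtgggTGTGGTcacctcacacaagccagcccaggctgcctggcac

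Over the 454 windows that met these regions, the AP-1 letters were found in 12.1%, against 7.81% of all 32817 windows and 3.97% of the 8937 windows in constitutive regions near gene ends. The CTCF letters were found in 6.61% of them, 3.21% of all windows and 5.67% of the near-gene windows. The SP letters, part of the GC box of many promoters, were in 52.2%, 35.6% and 71.0%, and the ETS letters in 4.63%, 3.89% and 10.7%. The TEAD letters were in 14.5%, 14.7% and 10.6%, and the RUNX letters in 13.2%, 16.8% and 10.9%. The E-box letters CANNTG were in 65.2%, 72.3% and 59.0%. The GGAA repeat and the NFI letters were in none of the 454, against 0.119% and 0.0366% of all windows, so a count of 0 is near that background. Median GC content was 58.2%, 52.7% and 62.3%, so the windows also differ in base composition. These matches are descriptions of letters and show no binding, and the comparison was chosen after the data were seen.

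Kifap3 (chr1:163779305-163780130, called in all 12 libraries) had the CTCF letters in its window, and its fold over local background was 10.2 in Wt replicate 1 and 11.3 to 20.3 in the other libraries. Lmna (chr3:88492388-88493375), also called in all 12, had folds of 4.29 to 6.64. It met the window over 113 bp, and its median summit, at position 88493100, lay outside it. At Gm52396 the region (chr19:38015338-38016125) had folds of 18.2, 13.7, 15.9 and 16.4 in EF replicates 1 to 4 and 10.3, 11.2 and 12.3 in Wt replicates 2 to 4. The EF and Wt values did not overlap there.

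7 regions held a microRNA hairpin. Mir199a-1 and Mir193a are shown because their microRNAs are known in mesenchymal cells and cancer; seeds (bases 2 to 8) are in capitals.
mmu-miR-199a-3p: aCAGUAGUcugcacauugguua
mmu-miR-199a-5p: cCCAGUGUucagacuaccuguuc
mmu-miR-193a-3p: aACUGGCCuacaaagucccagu
mmu-miR-193a-5p: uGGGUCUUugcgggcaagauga
The Mir199a-1 hairpin (chr9:21496495-21496564, minus strand) lies inside Dnm2, and its region was called in 11 libraries with a median library percentile of 36.6, where a library percentile is the rank of a region's fold among all regions called in that library. The Mir193a hairpin (chr11:79711969-79712034, plus strand) lies 13533 bp from Rab11fip4 by its region, and its region was called in the same 11 libraries. The Mir7688 region near Lta4h was higher, at 93.6.

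The regions with a protein-coding gene within 100 kb were spread over 2128 nearest genes. Of the regions, 1676 (51.9%, exact 95% interval 50.2 to 53.7) lay inside a protein-coding gene, as did 49.5% of all distal regions, and 236 (7.31%) lay more than 100 kb from any, against 16.9% of all distal regions. For 1535 genes there was 1 region, for 415 there were 2 and for 178 there were 3 or more. Irf2bp2, a transcriptional corepressor, had the most, with 8 regions between 20376 and 93068 bp away and none inside. Chd9, a chromatin remodeller, had 7, of which 6 were inside. Dlgap1, Nedd4l (a ubiquitin ligase), Pde4d (a cAMP phosphodiesterase) and Plec (plectin, a cytoskeletal linker) had 6 each. As a share of the distal regions nearest to a gene, Irf2bp2 had 8 of 31, Plec 6 of 16, Nedd4l 6 of 59 and Pde4d 6 of 115, and Por, the electron donor of cytochrome P450 enzymes, had 5 of 8. In 319 clusters, with gaps of at most 20 kb, lay 718 regions, and 13 clusters held at least 4. Clusters of 5 included those at Plec, Dlgap1, Kmt2e, Por and Synj2.

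Gene lists showed which known genes had such regions. Over all 99853 distal regions the constitutive ones are 3.23%, and each list's share is given beside it. Cytoskeleton and adhesion genes had 31 regions at 18 of 36 genes (4.68% of the list's distal regions), with 3 each at Lpp, Ptk2 (focal adhesion kinase) and Palld. Mesenchymal and limb genes had 16 at 9 of 25 genes (5.57%), including 4 at Tcf4 and 2 each at Nt5e, Zeb1, Zeb2 and Cd44. Inflammatory and AP-1 genes had 14 at 11 of 20 genes (9.86%), including Ptgs2, Atf3 and Fos with 2 each. WNT, hedgehog, BMP and TGF-beta genes had 16 at 10 of 38 (3.30%), with 4 at Smad3, a TGF-beta signal transducer. Osteogenic genes had 6 (4.0%; Runx2 2, Sp7 1), chondrogenic genes 4 (2.65%) and adipogenic genes 6 (3.24%; Cebpb 3, Pparg 1). IGF pathway genes had 8 (2.69%; Igf2r 4, Insr 2), YAP and TEAD targets 10 (2.40%) and the Hippo core 10 (5.68%). Genes known as EWS::FLI1 targets in human Ewing sarcoma had 10 (3.98%), at Myc (4), Jak1 (3), Lox (2) and Cav1 (1). Extracellular matrix genes had 4 of 324 distal regions (1.23%). The HOX list had 0 of 33 distal regions.

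Marker lists of other cell types were set beside the mesenchymal list. Hematopoietic markers had 7 regions (5.93% of the list's distal regions), at Cd34 (3), Runx1 (3) and Laptm5 (1), and none at the other 17 genes, which include Ptprc and Spi1. Endothelial markers had 7 (5.79%; Flt1 3, Vwf 2, Kdr 1, Cldn5 1), epithelial 3 (4.23%), smooth muscle and pericyte 1 (2.22%), neural 1 (1.56%) and muscle 0 of 26 distal regions. The hematopoietic and endothelial shares were no lower than the mesenchymal share of 5.57%, so these counts do not set the mesenchymal list apart. Accessible regions near a gene do not show that it is expressed, so the cell type was not tested by expression.

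These regions were tall peaks in most libraries. Their median library percentile had a median of 76.6 over the 12 libraries (SD 10.1), from 47.5 in Wt replicate 1 to 81.8 in Wt_IGF1. Constitutive regions near gene ends had medians from 52.95 in Wt replicate 1 to 76.11 in EF replicate 3. Pooled over the libraries other than Wt replicate 1, the median was 71.3 at distal regions called in exactly 10 libraries. It was 75.3 at those called in 11 and 82.2 at those called in 12. Height thus rose with the number of calls, which the rule used, so it is a description and not a finding. The constitutive distal regions had a median width of 858 bp (322 to 3361), against 1159 bp for constitutive regions near gene ends. Summits of a region varied by an SD of 41.6 bp (median), against 53.5 bp, and among regions of 322 to 680 bp the 2 kinds were closer, at 30.8 against 34.0 bp, and above 1101 bp the distal ones varied more, at 108 against 73.1 bp.

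To compare libraries, folds were ranked as shared percentiles, that is among the 12288 regions called in all 11 libraries other than Wt replicate 1, of which 3137 are distal. The distal regions varied more over libraries than those near gene ends: a region's range over the 11 libraries had a median of 58.8 percentile points, against 43.9. Without Wt replicate 2 the medians were 51.9 and 40.8. Wt replicate 2 held the lowest value for 22.2% of the distal regions. Over them, its correlations with the other libraries were 0.318 to 0.443, and the other 45 pairs had 0.449 to 0.847. These are descriptions across regions, which are not independent.

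**Figure D2:**
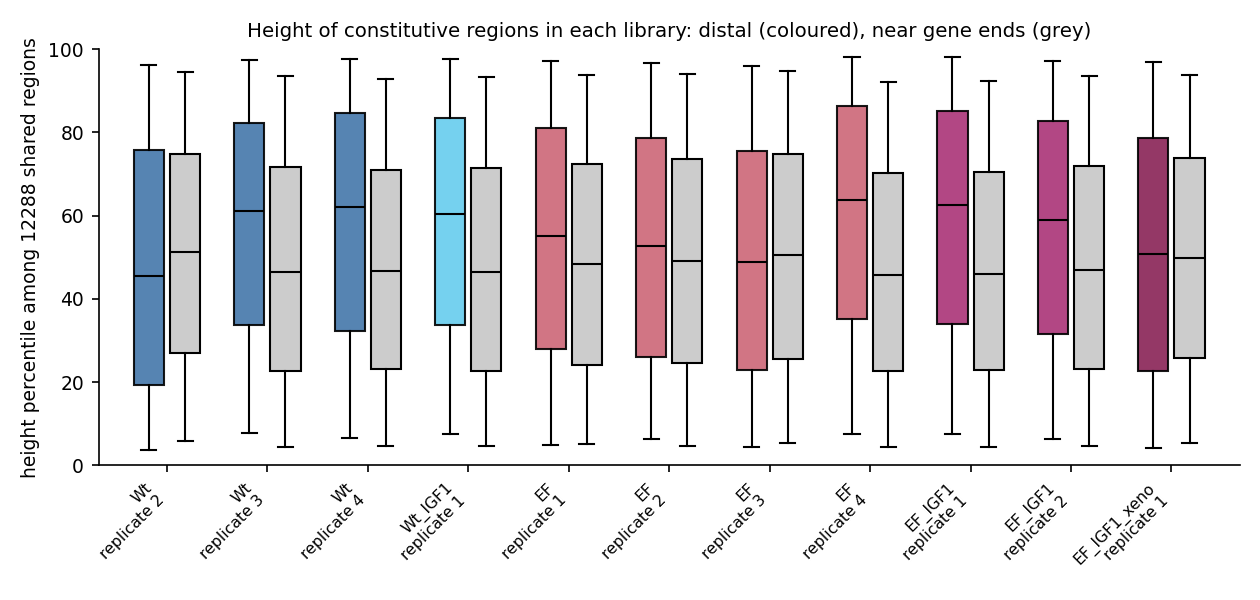
Shared percentile of fold (vertical axis) in each of 11 libraries for the 3137 constitutive distal regions (coloured boxes) and the 9151 constitutive regions near gene ends (grey); boxes are quartiles with the median, whiskers the 5th and 95th percentiles. Distal medians were above near-gene medians in most libraries but not in Wt replicate 2 and EF replicate 3.

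**Figure D3:**
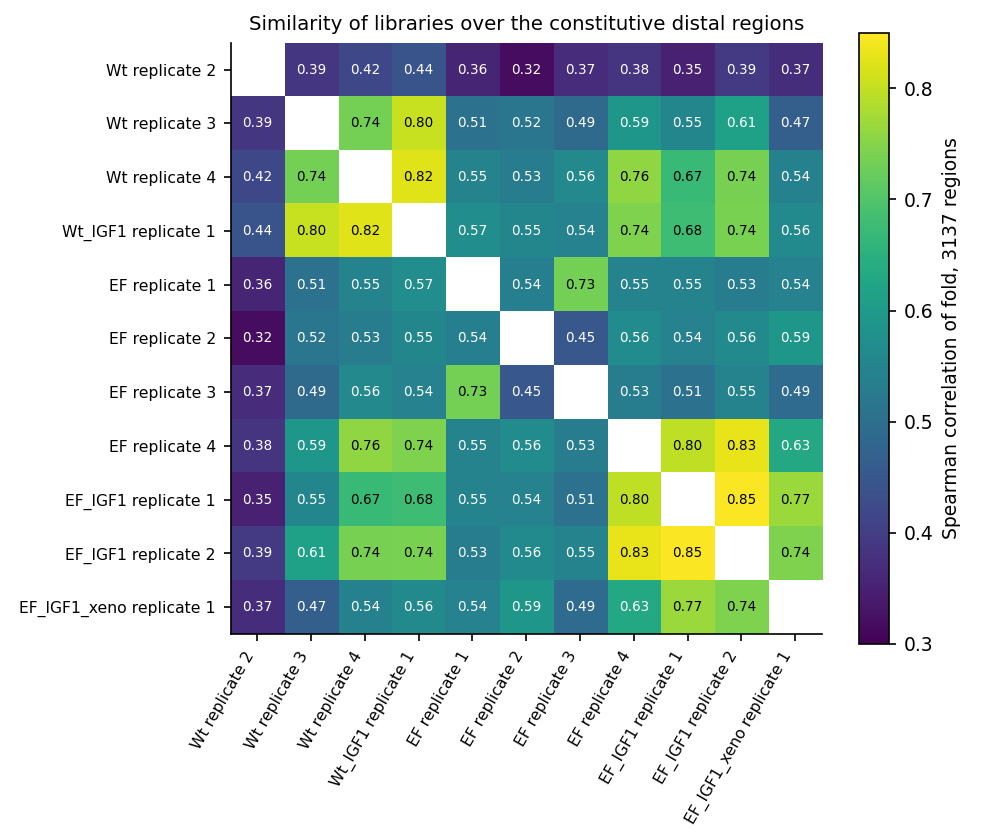
Spearman correlation of fold over the 3137 constitutive distal regions for each pair of 11 libraries. Wt replicate 2 had values of 0.318 to 0.443 and EF_IGF1 replicates 1 and 2 the highest, 0.847.

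The region with the highest median percentile (chr3:5860486-5860897) lay 282096 bp from the nearest protein-coding gene, and its fold was 23.5 to 33.3 in all 12 libraries. The Cdk8 region (chr5:146260874-146261462), inside a gene for a Mediator kinase, had folds of 15.7 to 25.4, with the lowest in EF_IGF1_xeno. The region near Axin2, a negative regulator of WNT signalling (chr11:109011529-109012137), had folds of 17.1 to 22.7 in all 12. Other tall regions lay at Pak3, Scp2, Rpusd4, Tango6, Dennd2a and Yae1d1. Not every tall region was even: at Fgd4 (chr16:16560015-16560537) shared percentiles were 99.0 or above in 8 libraries but 38.6 in Wt replicate 2, 58.4 in EF_IGF1 replicate 1 and 34.1 in EF_IGF1_xeno.

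The lowest folds came with high local background. The regions chr17:39847553-39848804 and chr17:39843035-39846395, over an 18S ribosomal RNA pseudogene (Rn18s-rs5), had folds of 2.15 to 2.64 and 2.18 to 2.94, but 118 to 284 and 148 to 281 reads at the summit. Local background there was 54.3 to 120.0 and 53.8 to 122.0 reads. The Plec region chr15:76195490-76196968 had folds of 2.36 to 3.79 at 50 to 196 summit reads, and its local background was 12.5 to 26.2 reads in 7 libraries but 55.7 in EF replicate 4, 82.4 and 64.0 in the EF_IGF1 libraries and 50.4 in EF_IGF1_xeno. A low fold is thus not the same as few reads.

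The widest ranges lay at Lox, Cdk15, Col16a1, Sema4f, Gulp1, Pde10a, Elavl2, Zfp703 and 2 regions without a gene within 100 kb. At Lox, a collagen crosslinking enzyme (chr18:52558659-52559330), the shared percentile was 0.618 in Wt replicate 2 and 66.7 to 99.4 in the other 10 libraries. At Pde10a (chr17:8856222-8856988) it was 3.21 and 1.93 in EF replicates 1 and 3, both of line S_220, and 82.1 to 98.5 in the other 9. At Sema4f (chr6:82854112-82854786) the same line gave 31.3 and 2.16, EF replicate 4 gave 59.0 and the others 73.2 to 99.5. EF_IGF1 replicate 1, labelled S_220, stood at 98.3 at Pde10a and 96.1 at Sema4f.

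**Figure D4:**
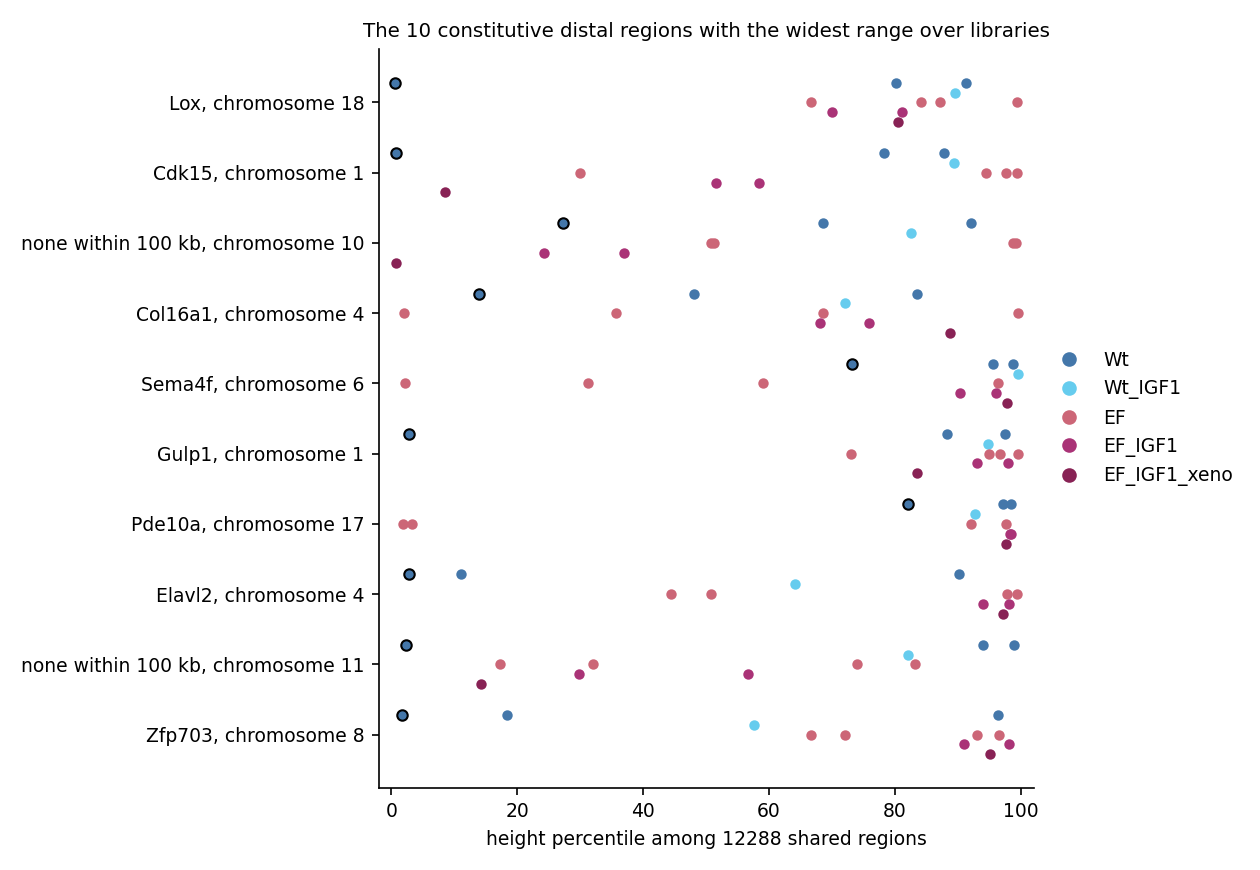
Shared percentile (horizontal axis) in each of 11 libraries at the 10 constitutive distal regions with the widest range; points are libraries, coloured by group, and Wt replicate 2 has a black outline. At Lox, Wt replicate 2 is at 0.618 and the others at 66.7 to 99.4.

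The comparison of EF with Wt asked whether heights moved with the EF genotype. Wt replicate 1 was left out, so Wt had 3 libraries and EF 4. No region passed: in limma with a flowcell term, 0 of 12288 regions had an adjusted p below 0.05 (percent called 0.0), and the smallest adjusted p of a distal region was 0.303. At an unadjusted p under 0.05 there were 974 regions in all and 433 of the 3137 distal regions, of which 230 were higher in EF (7.33%, against 4.0% of all regions tested) and 203 higher in Wt (6.47%, against 3.92%). The median difference was near 0 (-0.000814 percentile points, against -0.274 over all regions). Wt and EF did not overlap, with EF higher, at 106 distal regions (3.38%, against 2.83% of all), and with Wt higher at 147 (4.69%, against 3.04%). Without Wt replicate 2 these counts were 190 (6.06%, against 7.61% of all) and 352 (11.2%, against 6.88%). Within flowcell BSF_1013 alone they were 453 (14.4%, against 17.2%) and 661 (21.1%, against 15.6%), from 2 libraries a group. The EF-higher share of the distal regions, above that of all regions with every library kept, lay below it in both of these settings.

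The smallest p lay at a region inside Cdk6, a G1 cyclin-dependent kinase (chr5:3502579-3503223). Its shared percentiles were 46.2, 57.9 and 30.5 in Wt replicates 2 to 4, and 0.655, 9.66, 0.232 and 3.29 in EF replicates 1 to 4. The EF values all lay below the Wt values; the difference was -41.9 points (SE 7.15, limma adjusted p = 0.303). Near Tcf7l2, a WNT pathway transcription factor (chr19:55713894-55714401), Wt had 98.7, 82.0 and 89.8 and EF 45.9, 34.3, 5.65 and 25.2, a difference of -65.7 (SE 11.8, limma adjusted p = 0.303). Near Odc1, the first enzyme of polyamine synthesis (chr12:17509976-17510836), EF was the higher group, with 98.5, 93.9, 92.2 and 77.8 against 22.8, 43.0 and 27.3, a difference of 59.2 (SE 10.5, limma adjusted p = 0.303).

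Near Tnc, the matrix protein tenascin C (chr4:64098111-64098872), EF had 61.3 in replicate 2 and at least 86.1 in the other 3 libraries, and Wt 31.8, 1.96 and 4.34. The difference was 68.6 (SE 12.9, limma adjusted p = 0.307). Inside Fgd3 (chr13:49298360-49299510) Wt had 63.5, 73.5 and 55.0 and EF 9.19, 17.7, 7.65 and 18.2, a difference of -50.8 (SE 9.57, limma adjusted p = 0.307). The groups did not overlap at any of these 5 regions, which were named for the smallest p, so the separation adds no support. Ranked by summit reads, the differences were -54.2 at Cdk6, -61.7 at Tcf7l2, 30.0 at Odc1, 31.6 at Tnc and -24.2 at Fgd3. At the Gm52396 region inside Myof the difference was 27.4 (limma adjusted p = 0.312).

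The result changed when the EF libraries were averaged by line. In that fit each EF line was an average over both flowcells, and Wt replicate 2 was the only library on BSF_0654 alone. The flowcell term was thus set by the gap between Wt replicate 2 and Wt replicates 3 and 4. In the difference, Wt replicate 2 weighed as much as Wt replicates 3 and 4 together. With the EF libraries averaged by line, so that each line counted once, 26 distal regions were higher in EF (of 36 in all, 0.293% of regions tested) and 1 was higher in Wt (of 5 in all, 0.0407%). Among them were regions inside Jak1, a cytokine receptor kinase (35.9 points, limma adjusted p = 0.0246), and Hipk1, a nuclear kinase (48.0 points, limma adjusted p = 0.0246), and the 1 higher in Wt was inside Myo10, a filopodial myosin (-33.2 points, limma adjusted p = 0.0432). With all libraries kept, the adjusted p at these 3 regions was 0.56, 0.471 and 0.312, and these 3 were named after their values were seen. At the Jak1 region the shared percentiles were 95.7, 96.5, 98.7 and 98.9 in EF replicates 1 to 4. Wt replicates 3 and 4 stood at 99.1 and 97.2 there, and only Wt replicate 2 lay below the EF libraries. The 35.9 points at Jak1 thus rested on Wt replicate 2.

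With the EF libraries not averaged, no region of the gene lists passed the adjusted test, and the list values below are from that fit. The Jak1 region above, whose gene is on the EWS::FLI1 target list, passed only with averaging by line. The counts at an unadjusted p under 0.05 stand beside 7.33% and 6.47% of the 3137 distal regions higher in EF and in Wt. WNT, hedgehog, BMP and TGF-beta genes had 3 of 16 regions higher in Wt and 0 higher in EF, with a median difference of -19.3 points; 1 inside Smad3 (chr9:63716044-63716621) had -64.1 (limma adjusted p = 0.421). YAP and TEAD targets had 2 higher in EF and 1 in Wt of 10. In the same order, mesenchymal genes had 2 and 0 of 16, EWS::FLI1 targets 2 and 0 of 10, extracellular matrix genes 2 and 0 of 4 (median difference 31.9 points) and Hippo core genes 2 and 1 of 10. Inflammatory genes had 1 and 1 of 14, chondrogenic genes 1 and 0 of 4, cytoskeleton genes 0 and 2 of 31, IGF pathway genes 0 and 2 of 7, adipogenic genes 0 and 2 of 6 and osteogenic genes 0 and 0 of 5. Among the other cell types, endothelial markers had 2 and 1 of 7, epithelial 1 and 1 of 3, neural 1 and 0 of 1, smooth muscle 0 and 0 of 1 and hematopoietic 0 and 0 of 6. For the extracellular matrix list, the median shared percentile was 9.67 in Wt replicate 2 and 69.8 and 73.0 in Wt replicates 3 and 4. It was 72.7 to 85.8 in EF. The 31.9 points thus rested largely on Wt replicate 2, although at Tnc Wt replicates 3 and 4 also lay below EF.

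The comparison of EF_IGF1 with EF also gave 0 of 12288 regions by limma (percent called 0.0, smallest adjusted p 0.999), with 451 regions and 151 distal regions at an unadjusted p under 0.05. Of these 151, 79 were higher in EF_IGF1 (2.52%, against 1.91% of all) and 72 higher in EF (2.30%, against 1.76%). EF_IGF1 was above every EF library at 340 distal regions (10.8%, against 8.99% of all) and below at 238 (7.59%, against 10.1%). Ranked by -log10 p in place of fold, the counts were 257 (8.19%, against 10.3% of all) and 387 (12.3%, against 9.31%). Which direction was more frequent, and which lay above the share of all regions, thus turned with the measure. All EF_IGF1 libraries were on BSF_1013.

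At the region nearest Yap1, the Hippo pathway coactivator (chr9:7914416-7914956, 17313 bp away), shared percentiles of fold were 96.7, 48.9, 98.7 and 89.4 in EF, 16.3 and 11.9 in EF_IGF1 and 3.83 in EF_IGF1_xeno. The difference between EF_IGF1 and EF was -83.6 points (SE 20.4, limma adjusted p = 0.999). Reads at the summit showed no such drop: they were 45, 13, 74 and 53 in EF, 74 and 66 in EF_IGF1 and 74 in EF_IGF1_xeno. Local background was 1.92, 0.80, 3.30 and 2.60 reads in EF but 9.78 and 8.98 in EF_IGF1 and 12.7 in EF_IGF1_xeno. Relative to the lowest background of each library, that is 1.30 to 2.92 times in EF and 6.11 to 7.06 times in the other 3. Ranked by summit reads, the difference was -15.5 points. The lower fold thus came with a higher local background, whose source was not tested.

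Near Ptk2 on chromosome 15 (chr15:73434743-73435509), EF had shared percentiles of 92.6, 98.5, 82.3 and 76.0 and EF_IGF1 36.2 and 46.2, a difference of -41.9 (SE 8.97, limma adjusted p = 0.999). Local background there was 2.94 to 12.0 reads in EF and 18.4 and 12.7 in EF_IGF1, and by summit reads the difference was -10.1. Near Atp1b3, a sodium pump subunit (chr9:96381209-96381837), EF had 94.1, 83.0, 96.4 and 93.4 and EF_IGF1 44.0 and 48.4, a difference of -59.5 (SE 13.8, limma adjusted p = 0.999). There the summit reads were 27 and 29 in EF_IGF1 against 38, 23, 47 and 62 in EF, so the groups overlap at EF replicate 2, and by summit reads ranked within each library the difference was -53.4.

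At chr15:68401020-68402095, with no protein-coding gene within 100 kb, EF_IGF1 had 52.3 and 89.7 against 1.85 to 26.4 in EF, a difference of 67.5 points (SE 17.1, limma adjusted p = 0.999). By summit reads the difference was 10.4, and by -log10 p it was 28.9. Near Npvf, a neuropeptide gene (chr6:50684619-50685684), EF_IGF1 had 65.6 and 64.7 against at most 24.1 in EF, a difference of 46.8 points. Ranked by summit reads, the Npvf difference was -19.1, the opposite sign. These 5 regions were named for the smallest p and none passed the test.

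**Figure D5:**
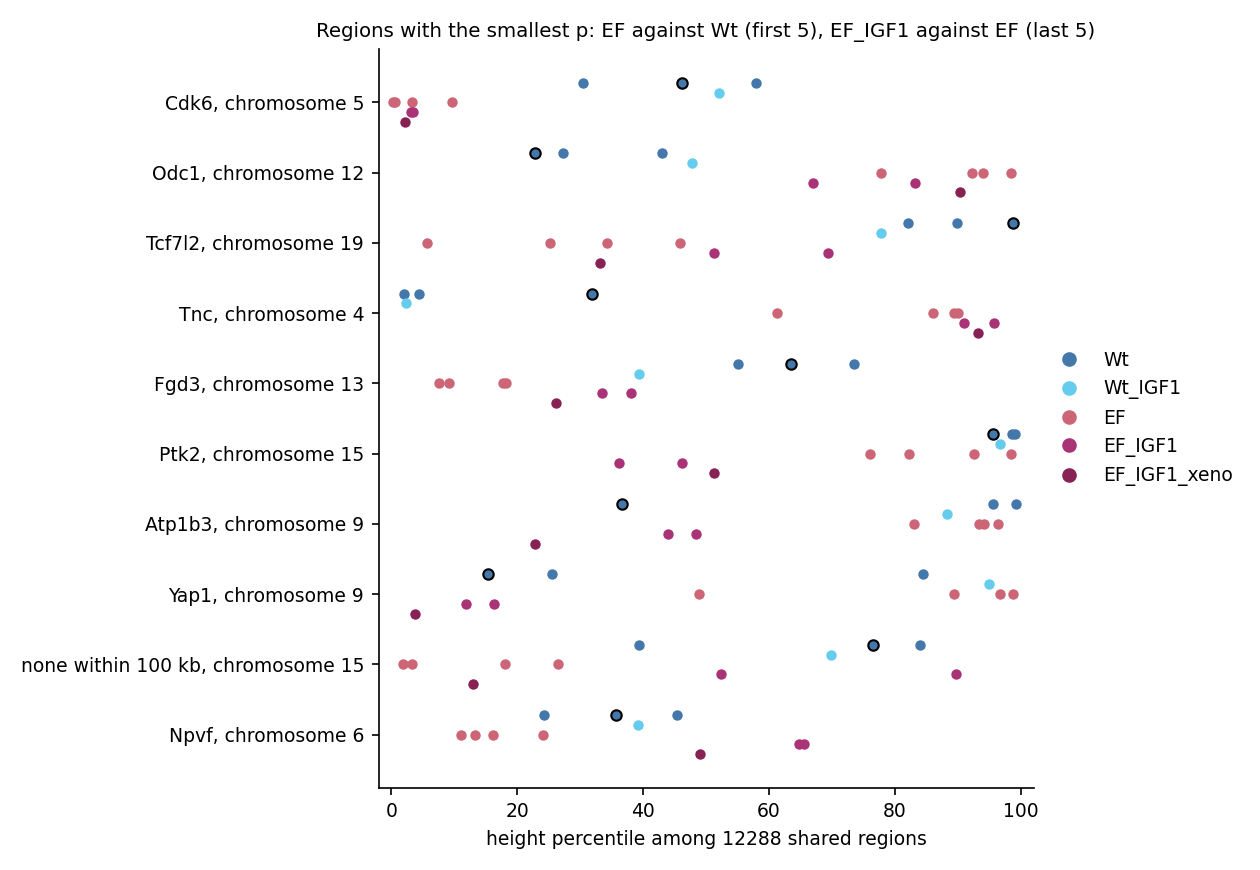
Shared percentile of fold (horizontal axis) in each of 11 libraries at the 5 constitutive distal regions with the smallest p in EF against Wt (upper) and the 5 in EF_IGF1 against EF (lower); points are libraries, coloured by group, and Wt replicate 2 has a black outline. At Cdk6 the EF libraries sit at 0.232 to 9.66 and Wt at 30.5 to 57.9, and no region passed the adjusted test.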

How the data were processed

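ATAC-seq peaks of 12 mouse libraries were used. The submitters' processing notes name MACS2 and GRCm38.p3, with no role or options, and no aligner. Peaks were listed per library. Per peak, the deposited files give a fold over local background (a ratio), -log10 p and -log10 q, and a score. These are the authors' values and serve to describe, rank or filter within a list.

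Groups came from the genotype label, replicate numbers from accession order. Peaks overlapping by 1 bp were merged. Genes were RefSeq GRCm38.p6. Summit reads and background were solved from fold and p within 0.001, which succeeded for 100% of peaks; read totals were not used. Shared percentiles were tested with limma 3.58.1 (R 4.3.3; all groups, flowcell term, trended eBayes, Benjamini-Hochberg over 12288 regions, threshold 0.05). Tested on simulated data for EF against Wt, with 200 of 12288 regions moved across the middle of the ranks by 1, 1.5 and 2 log2 units, limma recovered 86.5%, 98% and 98%, with 3 false calls each. When regions were moved in either direction it recovered 45%, 55% and 54.5%, and 4%, 6% and 6% of those with under 20 points of room. The simulated noise was independent and of 1 size (0.21 log2 units) in every region and library. It held no outlying library, no likeness within a line and no greater spread at distal regions. The recovery thus does not give the power at the distal regions in these data.

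Named regions were the 10 with the highest and 5 with the lowest median percentile, the 10 with the widest range, the 5 with the smallest p per contrast (as none passed), those at the genes with most regions, and members of gene lists. The members and lists were chosen with earlier results of these data known. The planned motif search within the regions was not run, since no genome was used here.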

Additional observations from a re-analysis of the deposited data

Results flagged for a closer look

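Several single libraries were flagged as apart from the others of their group. In all, 41 groups were looked at, and chance picks about 1 in 20 of groups not chosen by their values. The regions flagged below had been named for extreme percentiles, wide range or small p in these data, and several lie near the ends of the ranks. The chance rate is thus not known here, and the flags are descriptions. Each value is the gap to the nearest library divided by the group's range. Wt replicate 1 called 679 of the regions against 3218 to 3226 in the other Wt libraries (0.997). The rule lets a region lack only 1 library, and Wt replicate 1 was the missing one at 2548. The high counts of the other Wt libraries were thus largely set by the rule. Among the EF libraries' shared percentiles, EF replicate 4 stood apart at Pak3 (0.988, with 89.2 against at least 99.9). At chr17:39847553 the value was 1.0, with EF replicate 4 at 0.0244 and the other 3 at 0.00814. These ranks lie at the floor, and the fold of EF replicate 4, 2.36, lay among the 2.31, 2.15 and 2.38 of EF replicates 1 to 3. EF replicate 1 stood apart at Axin2 (0.86) and Yae1d1 (86.6; 0.973), and EF replicate 3 at Scp2 (0.886). EF replicate 2 stood apart at a Plec region (0.907), at Cdk15 (29.9; 0.93) and at Tnc (61.3; 0.862).

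At 3 regions the difference with IGF1 had opposite signs in Wt and EF, each pair within flowcell BSF_1013; these differences were not tested, and Wt had 1 pair. The EF_IGF1 library labelled S_220 had heights closer to EF replicate 4 of S_221 (0.797) than to either S_220 library (0.546 and 0.505), and whether the S_220 pair is of 1 line was not tested. Near Yap1 the Wt pair had a difference of 69.5 points, whereas S_220 and S_221 had -82.4 and -77.5. At chr15:68401020 the Wt pair had -14.1 and the EF lines 49.0 and 87.9. Near Npvf the Wt pair had -6.13 and the EF lines 49.4 and 40.6. Ranked by summit reads, the difference between EF_IGF1 and EF was -15.5 near Yap1 and 10.4 at chr15:68401020. Near Npvf it was -19.1, so the sign on the EF side there turned with the measure.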

How the results depend on the processing

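The number of constitutive distal regions was 3227 and depended on the library threshold: it was 589 in all 12, 7404 in at least 10, and 1018 beyond 50 kb. Leaving out 1 library and asking for 10 of the other 11 gave 3226 to 7327, with 7327 without Wt replicate 1 and 5644 without Wt replicate 2. The median percentile of 76.6 was 59.0 among shared regions. The share on a promoter window was 28.3% in all 12, 7.54% in at least 10 and 7.49% by summit, and the median range was 51.9 without Wt replicate 2.

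In EF against Wt the count of 0 became 1 with centred log2 fold (Vps13c), 1 by summit reads (Aph1c) and 41 when EF libraries were averaged by line; 27 of the 41 were distal regions, 26 higher and 1 lower in EF. In that averaged fit Wt replicate 2 was the only library on BSF_0654 alone, so the flowcell term rested on it. The cause of the added calls was not tested. In EF_IGF1 against EF the count of 0 became 1 by summit reads (Gm6569). None of Vps13c, Aph1c and Gm6569 marks a constitutive distal region. The replicate block by line name (correlation -0.0551) left both counts at 0, as did leaving out any 1 library of the groups compared, Wt replicate 1 being already left out. Counts without overlap, EF higher and Wt higher, were 190 and 352 without Wt replicate 2, and 453 and 661 within BSF_1013. For EF_IGF1, 637 were higher (20.3%, against 17.7% of all) and 464 lower (14.8%, against 18.1%) within BSF_1013, and 387 lower by -log10 p (12.3%, against 9.31%).

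Of 147 alternative values of the 10 regions named by p, 146 kept their sign and side of the threshold and 1 reversed, Npvf at -19.1 by summit reads. Adjusted p was 0.0605 to 0.912 for EF against Wt and 0.392 to 1.0 for EF_IGF1 against EF. Ranking by summit reads, the promoter-window shares, the range without Wt replicate 2 and the non-overlap counts were chosen after seeing the data. Regions near either end of the ranks have little room to move, which limits what the counts of 0 can show.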
